A study of Mus musculus with 16 samples.

Results

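Aldh1l1 and Slc41a3, which lie side by side on chromosome 6, and Lamb3, Gm37691, Gm38118, 4930570N18Rik and A130010J15Rik, which lie together on chromosome 1, form 2 groups of neighbouring genes whose transcript levels differed between B cells with and without the transcription factor gene Gtf2i. They were picked by symbol, 7 of the 27928 genes measured, because their levels shifted with genotype. Their differences between genotypes are therefore given as a description and without a test. Tests are given for the difference between B cell subsets, which played no part in the choice, and for the other genes around them.

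RNA was sequenced from 2 subsets of splenic B cells sorted from young adult mice of the C57BL/6 strain, follicular (FO) cells as CD21lo CD23hi and marginal zone (MZ) cells as CD21hi CD23lo. The WT mice carried neither a floxed Gtf2i allele nor Cre. The cKO mice were homozygous for the floxed allele (Gtf2i fl/fl) and carried a Cre that is active in the B lineage. There were 2 libraries in each of the 4 groups, and the sources do not say how many mice gave each library, so the p-values measure the spread between these libraries, which may be technical.

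Gtf2i encodes TFII-I, a transcription factor known to bind initiator elements at the start of genes and E-box sequences. Aldh1l1 encodes the cytosolic enzyme that oxidises 10-formyltetrahydrofolate, drawing one-carbon units out of the folate pool, and is best known as a marker of astrocytes and as a liver enzyme. Slc41a3 encodes a magnesium transporter of the inner mitochondrial membrane. Lamb3 encodes the beta 3 chain of laminin-332, which anchors epithelia to the basement membrane. FO B cells recirculate through the follicles and serve T-cell dependent responses, while MZ B cells stay at the edge of the follicle and answer blood-borne antigens quickly.

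Coordinates are those of GENCODE release M21 on GRCm38. Aldh1l1 (ENSMUSG00000030088.15) spans chr6:90486427-90600203 and Slc41a3 (ENSMUSG00000030089.15) spans chr6:90604725-90646412, both on the plus strand, with 4.52 kb between the end of the first and the start of the second. On chromosome 1 the order is A130010J15Rik (ENSMUSG00000079144.7, chr1:193168046-193177832), 4930570N18Rik (ENSMUSG00000089683.2, chr1:193203038-193226208), Lamb3 (ENSMUSG00000026639.18, chr1:193207699-193343878), Gm38118 (ENSMUSG00000103089.1, chr1:193259616-193261837) and Gm37691 (ENSMUSG00000104348.1, chr1:193281271-193283843). Gm38118 is on the minus strand and the other four are on the plus strand. A130010J15Rik is protein coding, 4930570N18Rik is classed as antisense RNA, and Gm37691 and Gm38118 are transcript models still awaiting experimental proof.

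Gm37691 and Gm38118 both lie inside the gene span of Lamb3, and Gm38118 also lies inside Hsd11b1, which runs on the minus strand within that span. None of the 3 non-coding genes shares an exon base with Lamb3 (0 bases each). The RNA was total RNA depleted of ribosomal RNA, so reads from unspliced Lamb3 RNA and reads from Gm37691, which lies on the same strand in an intron, cannot be told apart in these counts. The same holds for Gm38118 and unspliced Hsd11b1. It may also hold for unspliced Lamb3 RNA and 4930570N18Rik, whose span overlaps Lamb3 on the same strand. If reads were counted without regard to strand, it may hold for unspliced Lamb3 RNA and Gm38118, Hsd11b1 or G0s2 too. A130010J15Rik shares 420 of its 4403 exon bases with Traf3ip3 on the opposite strand, and how reads were assigned to strands is not given in the sources used here.

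Promoter sequences are shown for the 3 genes after which the groups are named, because members that share a neighbourhood can be compared at their starts with the E-box motif that TFII-I is known to bind. Each is the run of 250 bases before the first base of a RefSeq transcript on GRCm38.p6, plus strand, with every E box (CANNTG, which reads the same on both strands) in capitals. The window is chr6:90550543-90550792 for Aldh1l1, chr6:90618996-90619245 for Slc41a3 and chr1:193301744-193301993 for Lamb3.
Aldh1l1: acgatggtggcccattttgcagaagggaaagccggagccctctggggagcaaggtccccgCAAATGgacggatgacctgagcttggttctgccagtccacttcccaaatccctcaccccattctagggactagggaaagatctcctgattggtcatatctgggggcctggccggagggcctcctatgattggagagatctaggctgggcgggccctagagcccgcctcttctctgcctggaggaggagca
Slc41a3: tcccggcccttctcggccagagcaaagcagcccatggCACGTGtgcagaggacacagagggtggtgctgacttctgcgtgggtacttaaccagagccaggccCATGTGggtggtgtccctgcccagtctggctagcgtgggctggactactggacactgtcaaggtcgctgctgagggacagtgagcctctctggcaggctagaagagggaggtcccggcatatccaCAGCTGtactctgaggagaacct
Lamb3: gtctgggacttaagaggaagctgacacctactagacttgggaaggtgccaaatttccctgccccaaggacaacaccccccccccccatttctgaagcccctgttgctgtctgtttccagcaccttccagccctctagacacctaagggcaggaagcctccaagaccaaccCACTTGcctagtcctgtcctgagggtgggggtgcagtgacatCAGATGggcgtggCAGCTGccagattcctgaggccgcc
Aldh1l1 held 1 E box, Slc41a3 held 3 and Lamb3 held 3 (1 in the window of a second Lamb3 start, chr1:193301993-193302242), and 66.2% of the 32851 RefSeq promoters of this length held at least 1. The palindrome CACGTG, one of the words the CANNTG motif takes in, was found in the Slc41a3 window and not in those of Aldh1l1 or Lamb3. Of all promoters, 6.02% held it. The Slc41a3 window lies inside the gene, whose principal GENCODE transcript starts at chr6:90604725. The GENCODE transcript that starts within the window, at chr6:90619147, is not marked as principal, and the region before the principal start was not examined. A130010J15Rik had a RefSeq promoter too, at 2 starts with 1 and 2 E boxes. Gm37691, Gm38118 and 4930570N18Rik are named only. The first RefSeq start of Lamb3 lies 94.3 kb downstream of the GENCODE start of the gene, and Gm37691 ends 18.2 kb and Gm38118 ends 40.2 kb before it.

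The libraries held 21546552 to 25083552 reads on genes. Gtf2i itself was lower in cKO without overlap, at 1523 to 1531 normalized counts in cKO FO against 1992 to 2040 in WT FO, and at 1782 to 1889 in cKO MZ against 2471 to 2864 in WT MZ. The log2 difference of Gtf2i, cKO minus WT, was -0.40 in FO, -0.54 in MZ and -0.47 over both subsets. Gtf2i did not pass the limma test used below in any of these contrasts (limma adjusted p = 0.989, 0.363 and 0.0793). The B-cell markers summed to 156421 to 223361 in all 8 libraries. Sex-linked transcripts moved with genotype: Ddx3y, on the Y chromosome, was at 0.998 to 6.34 in WT and at 2682 to 5514 in cKO, and Xist, expressed from the inactive X, was at 25930 to 47002 in WT. Xist was at 21.7 to 89.7 in 3 of the cKO libraries and at 14748 in cKO FO replicate 1, which held both Xist and Ddx3y and so stands apart. Genotype and the sex-linked difference cannot be told apart in these libraries. cKO MZ replicate 1 carried more RNA of other blood cells, with 6 erythroid markers summing to 13304 against at most 1007 elsewhere and 10 granulocyte markers to 1879 against at most 105. cKO MZ replicate 2 held more collagen RNA, with Col1a1 at 111, Col1a2 at 45.4 and Col3a1 at 37.1 against at most 6.66 for any of them elsewhere. The other markers of the stromal and endothelial list, Pdgfra, Pdgfrb, Pecam1, Cdh5 and Kdr, were not highest in that library. Pdgfra, for example, was at 3.09 there and at 8.67 in WT MZ replicate 1. The differences of the 7 genes between genotypes are also given without these libraries.

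**Figure D1:**
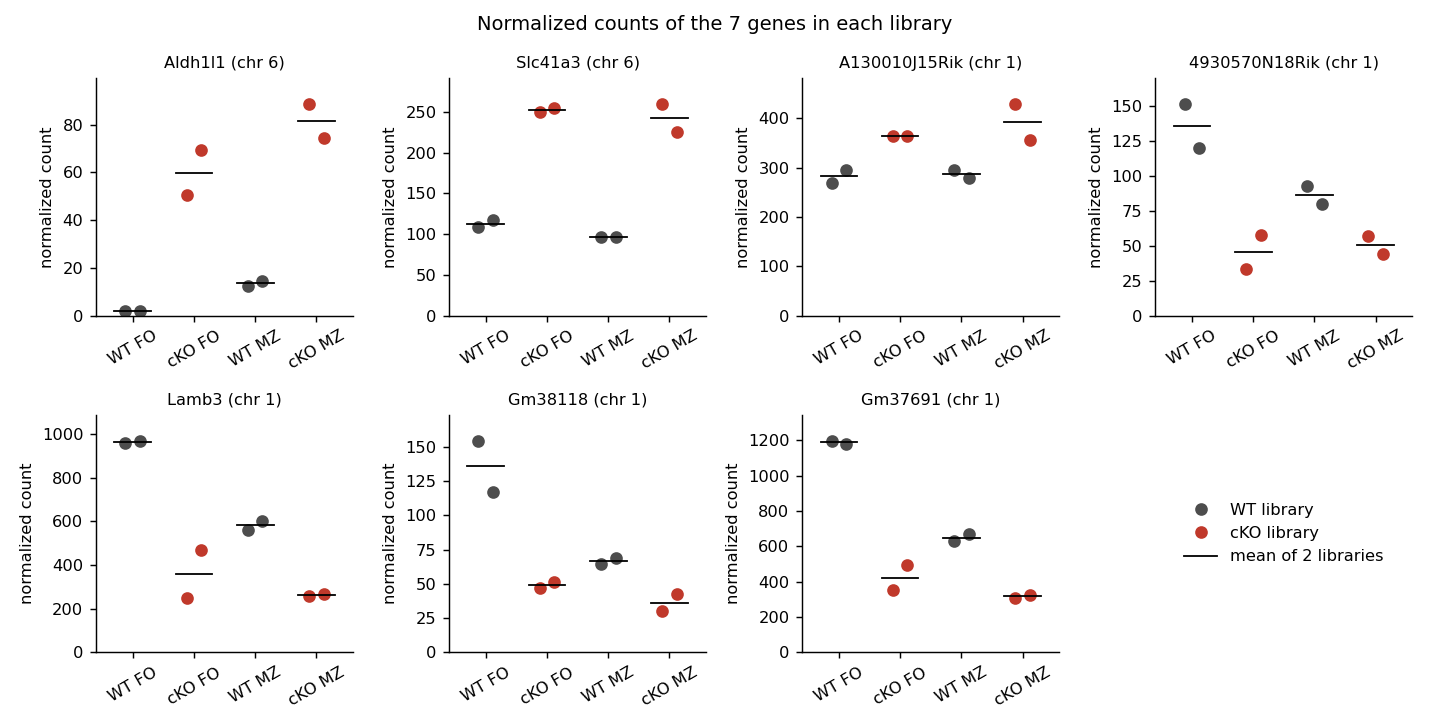
Normalized counts (linear axes from 0) of the 7 genes in each of the 8 libraries, with grey points for WT, red points for cKO and a black line at the mean of the 2 libraries. In every panel the cKO points lie entirely above or entirely below the WT points of the same subset, by the widest ratio in Aldh1l1.

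On chromosome 6 both genes were higher in cKO, Aldh1l1 from near the detection limit and Slc41a3 from a moderate level. In all, 7 of the 7 genes had cKO and WT libraries that did not overlap in either subset, 3 higher and 4 lower in cKO, and 9.34% of all genes tested did not overlap in both subsets in the same direction. The 7 were chosen on this contrast, so nothing is read from that count.

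The normalized count of Aldh1l1 was 1.996 and 1.903 in WT FO, 50.4 and 69.5 in cKO FO, 12.5 and 14.5 in WT MZ, and 88.7 and 74.2 in cKO MZ. All 4 cKO libraries were above all 4 WT libraries, and within WT the MZ libraries were above the FO libraries. In FO the WT values rest on 2 reads in each library, 4 reads in all against 114 in cKO, and the ratio of reads per size factor was 31.0 (95% exact interval 11.8 to 115.8, which covers counting error only). In MZ it rested on 29 reads against 161 and was 6.03 (4.04 to 9.29). On the log2 scale with 1 added to each value, the difference cKO minus WT was 4.35 in FO and 2.51 in MZ (limma standard error 0.351, n = 2 libraries a group). The FO difference was 4.58 without cKO FO replicate 1, and the MZ difference was 2.38 without cKO MZ replicate 1 and 2.63 without cKO MZ replicate 2. With 0.5 added in place of 1, the FO difference was 4.61.

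The normalized count of Slc41a3 was 109 and 117 in WT FO, 249.7 and 254.7 in cKO FO, 96.3 and 96.9 in WT MZ, and 260.1 and 225.8 in cKO MZ. The 4 cKO libraries formed a band well above the 4 WT libraries, and the subsets were close to each other within each genotype. The mean was 2.23-fold higher in cKO FO and 2.52-fold higher in cKO MZ, with log2 differences of 1.15 and 1.32 (standard error 0.163). The FO difference was 1.17 without cKO FO replicate 1, and the MZ difference was 1.22 without cKO MZ replicate 1 and 1.42 without cKO MZ replicate 2. Replicates differed by 1.01 to 1.15-fold. Per kb of exon, Slc41a3 stood at 33.2 to 38.8 in the WT groups and 83.5 to 86.6 in the cKO groups, while Aldh1l1 stood at 0.432 and 2.99 in WT FO and MZ and at 13.3 and 18.04 in cKO FO and MZ. The ratio of Slc41a3 to Aldh1l1 within a library was 54.5 to 61.5 in WT FO, 6.69 to 7.69 in WT MZ and 2.93 to 4.96 in the 4 cKO libraries, so the neighbours were not higher by the same factor.

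Astrocytes and hepatocytes, the cells best known for Aldh1l1, were checked through 7 markers in the table, including Gfap, Aqp4 and Apoa1. Their normalized counts summed to 8.98 to 18.1 in the FO libraries of both genotypes and to 18.6 to 46.2 in the MZ libraries of both genotypes, and Gfap was at 0 to 10.0 and Aqp4 at 0 to 3.85 in all 8. In bulk RNA, fewer cells expressing a gene and less RNA in each cell cannot be told apart.

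On chromosome 1 the order was different: Lamb3 and the 3 non-coding genes within or across its span were lower in cKO, and A130010J15Rik, upstream, was slightly higher. The normalized count of Lamb3 was 958 and 969 in WT FO, 246 and 466 in cKO FO, 559 and 603 in WT MZ, and 257 and 267 in cKO MZ. The lowest WT library was above the highest cKO library of either subset, and the pair of cKO FO libraries was the most widely spread pair, at 1.89-fold. Mean levels were 2.71-fold lower in cKO FO and 2.22-fold lower in cKO MZ, with log2 differences of -1.51 and -1.14 (standard error 0.258). The FO difference was -1.05 without cKO FO replicate 1, the library that stands apart, and -1.96 without cKO FO replicate 2. The MZ difference stayed between -1.20 and -1.09 when each MZ library was left out in turn.

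Gm37691, in the Lamb3 intron, followed Lamb3 closely. Its normalized count was 1199 and 1179 in WT FO, 352 and 494 in cKO FO, 629 and 667 in WT MZ, and 308 and 324 in cKO MZ. As for Lamb3, WT FO was highest, WT MZ was in the middle, and the cKO libraries were lowest without overlap. The log2 differences were -1.51 in FO and -1.03 in MZ (standard error 0.161), and the FO difference was -1.26 without cKO FO replicate 1. The MZ difference was -0.999 without cKO MZ replicate 1 and -1.07 without cKO MZ replicate 2. The ratio of Gm37691 to Lamb3 lay between 1.06 and 1.43 in the 8 libraries, and both of these extremes were cKO FO libraries. Per base of exon, Gm37691 was 2.73 to 3.67 times as high as Lamb3.

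Gm38118, the minus-strand model inside Hsd11b1, had a normalized count of 155 and 117 in WT FO, 47.0 and 51.3 in cKO FO, 64.5 and 68.8 in WT MZ, and 29.9 and 42.3 in cKO MZ. WT FO was well above the other 3 groups, and WT MZ was above both cKO groups. The log2 differences were -1.43 in FO and -0.89 in MZ (standard error 0.272). The FO difference was -1.37 without cKO FO replicate 1, and the MZ difference was -0.64 without cKO MZ replicate 1 and -1.13 without cKO MZ replicate 2. Its ratio to Hsd11b1, the gene that contains it on the same strand, was 0.180 to 0.289 in the WT libraries and 0.118 to 0.156 in the cKO libraries, so it was lower also relative to that gene.

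The antisense RNA 4930570N18Rik, whose first base lies 4.66 kb before that of Lamb3, was at 152 and 120 in WT FO, 33.6 and 57.4 in cKO FO, 92.5 and 79.7 in WT MZ, and 56.8 and 44.3 in cKO MZ. WT libraries were above cKO libraries in both subsets. The log2 differences were -1.60 in FO and -0.76 in MZ (standard error 0.313), and the FO difference was -1.22 without cKO FO replicate 1 and -1.97 without cKO FO replicate 2. The MZ difference was -0.94 without cKO MZ replicate 1 and -0.59 without cKO MZ replicate 2.

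A130010J15Rik, a little-studied protein-coding gene that ends 29.9 kb before the GENCODE start of Lamb3, was at 268 and 296 in WT FO, 365 and 363 in cKO FO, 296 and 279 in WT MZ, and 430 and 356 in cKO MZ. All 4 cKO libraries were above all 4 WT libraries, but by less than in the other members. The ratio of means was 1.29 in FO and 1.37 in MZ, under the 1.5-fold used for calls here, with log2 differences of 0.37 and 0.44 (standard error 0.142). The FO difference was 0.37 without cKO FO replicate 1 as well, and the MZ difference was 0.31 without cKO MZ replicate 1 and 0.58 without cKO MZ replicate 2. Traf3ip3, the signalling adaptor gene with which it shares exon bases, had a log2 difference over both subsets of 0.21.

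The cells best known for Lamb3 are epithelial. Of 8 epithelial markers, 5 stayed at or below 10 normalized counts in all 8 libraries, Krt14 among them at 0 to 2.24, and their sum was 79.9 to 156 in FO and 297 to 405 in MZ. Most of it was Epcam, at 59.9 to 131 in FO and 277 to 387 in MZ. The marker sum was thus higher in MZ, while Lamb3 was higher in WT FO than in WT MZ.

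Across the 8 libraries, the log2 levels of Lamb3 and Gm37691 had a Pearson correlation of 0.987, those of Lamb3 and 4930570N18Rik 0.937, and those of Lamb3 and Gm38118 0.929. Lamb3 and A130010J15Rik had -0.855, and on chromosome 6 Aldh1l1 and Slc41a3 had 0.834. These are descriptions over 8 libraries that share their genotype and subset groups, and the members were chosen for the genotype part of that pattern. Unspliced Lamb3 RNA may also add reads to Gm37691, 4930570N18Rik and Gm38118, as described above.

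The genes around the 2 groups were then examined, to see how far along the chromosome the differences ran. Within 1 Mb of the members lay 41 other genes of the table, 24 on chromosome 6 and 17 on chromosome 1, and 19 of them had a mean normalized count of at least 10 and were tested. With limma, 0 of 19 passed an adjusted p of 0.05 and 1.5-fold between cKO and WT in FO, in MZ or over both subsets, where 0.0677%, 0.0339% and 0.108% of all 14761 genes did. At an unadjusted p of 0.05 the counts were 1, 2 and 4 of 19, beside 2.59%, 4.04% and 6.63% of all genes tested. DESeq2 on reads recovered from the table also called 0 of the 19, and called 0.112%, 0.3% and 0.429% of the genes to which it gave an adjusted p (21430, 16016 and 16557). With edgeR the count was 0 of 19 as well, beside 0.061%, 0.0271% and 0.108% of 14761 genes. Limma did not call Gtf2i itself in these contrasts, so a count of 0 does not show that the neighbours were unchanged. The cKO and WT libraries did not overlap in either subset in 2 of the 19 genes, Iqsec1 and G0s2, both lower in cKO, a share near the 9.34% over all genes tested.

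**Figure D2:**
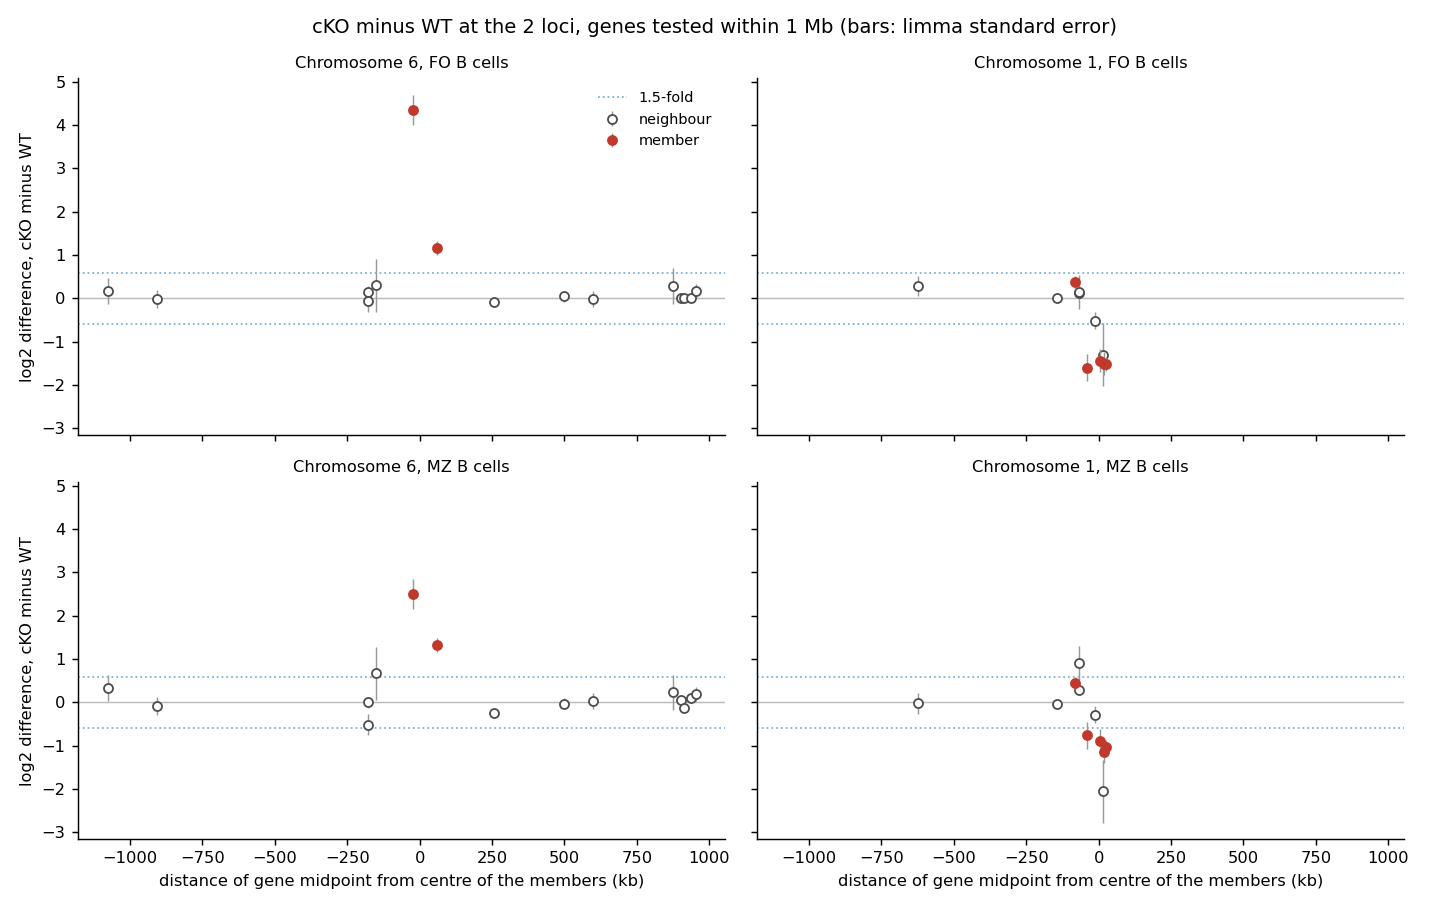
The log2 difference cKO minus WT for the 7 members (red) and the 19 tested neighbours (open) against the distance in kb between each gene's midpoint and the centre of its group, for chromosome 6 (left) and chromosome 1 (right) in FO (top) and MZ (bottom), with limma standard errors as bars and dotted lines at 1.5-fold. The members were chosen on this contrast. Among the neighbours, Cfap100 on chromosome 6 reaches 0.67 in MZ with a wide error bar, and on chromosome 1 G0s2 lies at -1.30 in FO and -2.05 in MZ.

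On chromosome 6 the nearest tested gene after Slc41a3 was Iqsec1, which encodes an exchange factor for the GTPase Arf6, 9.68 kb away. Its normalized count was 8075 and 7758 in WT FO, 7730 and 7227 in cKO FO, 6549 and 6276 in WT MZ, and 5143 and 5721 in cKO MZ. Its log2 difference over both subsets was -0.16 (standard error 0.0621, limma adjusted p = 0.726). On the other side the nearest tested gene was Cfap100, a cilium gene 57.6 kb away with at most 19.96 normalized counts, at 0.49 (adjusted p = 0.884 in limma). The nuclear pore gene Nup210 was at 0.01, and C030015A19Rik was at -0.29 (limma adjusted p = 0.836). Klf15, which lies 11.2 kb before Aldh1l1, had at most 2.06 normalized counts in any library and was not tested. None of the 13 tested genes around Aldh1l1 and Slc41a3 was called.

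On chromosome 1, 2 tested genes lie within the span of Lamb3, on the opposite strand. If reads were counted without regard to strand, unspliced Lamb3 RNA may add to their counts. G0s2, which encodes an inhibitor of the main triglyceride lipase and ends 8.05 kb before Gm37691, had normalized counts of 26.9 and 20.9 in WT FO, 6.72 and 12.1 in cKO FO, 17.3 and 16.3 in WT MZ, and 1.00 and 8.25 in cKO MZ. All cKO libraries were below all WT libraries, and the log2 difference over both subsets was -1.68 (standard error 0.511, limma unadjusted p = 0.0118, adjusted p = 0.646), so it did not pass the test. It was -1.49 without cKO FO replicate 1, -1.12 without cKO MZ replicate 1 and -2.23 without cKO MZ replicate 2. Hsd11b1, which encodes the enzyme that regenerates active glucocorticoid, was at 535 and 652 in WT FO, 391.9 and 434.8 in cKO FO, 261 and 364 in WT MZ, and 236 and 271 in cKO MZ. Its groups did not overlap in FO and overlapped in MZ, and its difference over both subsets was -0.40 (standard error 0.135, limma adjusted p = 0.667).

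Upstream on the same chromosome, Traf3ip3 was at 0.21 (limma adjusted p = 0.747) and its neighbour Gm15872 at 0.53 (adjusted p = 0.798 in limma). Utp25, a ribosome biogenesis gene, was at -0.01. No gene beyond the 3' end of Lamb3 within 1 Mb passed the expression filter. Camk1g, the first of them at 2.47 kb, had at most 2.99 normalized counts.

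The contrast of FO with MZ played no part in choosing the 7 genes and was tested over both genotypes. With limma, 3 of 7 passed the test, where 18.4% of all 14761 genes did. Aldh1l1 was lower in FO than in MZ, with a log2 difference of -1.37 (standard error 0.248, limma adjusted p = 0.00444), and the FO libraries were below the MZ libraries within each genotype. Its mean of 39.2, which passed the expression filter, was raised by cKO, at 59.9 in FO and 81.5 in MZ against 1.95 and 13.5 in WT. Within cKO the difference was -0.45 (standard error 0.351), so the call rests largely on WT FO, with 2 reads in each library. Gm37691 was higher in FO by 0.64 (standard error 0.114, adjusted p = 0.00420 in limma), and so was Gm38118 by 0.73 (standard error 0.192, adjusted p = 0.0224 in limma).

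Lamb3 had a difference in the same direction, 0.55 (standard error 0.182), which missed both the adjusted p of 0.05 and 1.5-fold (limma adjusted p = 0.0515). DESeq2 called it at 0.59 (adjusted p = 0.0070), and edgeR gave 0.58 (adjusted p = 0.0393), under 1.5-fold. Quantile normalization gave 0.64, past both (limma adjusted p = 0.0252). It was 0.78 without cKO FO replicate 1 (adjusted p = 0.00176 in limma) and 0.32 without cKO FO replicate 2, so its call depends on the method, the scaling and the libraries used. Gm37691 fell short of 1.5-fold without cKO FO replicate 2, at 0.51. Gm38118 kept its direction at 0.61 to 0.85 when each library was left out, but 6 of the 8 fits gave an adjusted p above 0.05.

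For the other 3 members no difference between subsets was called. The log2 difference FO minus MZ was 0.14 for Slc41a3 (standard error 0.115, limma adjusted p = 0.390), 0.23 for 4930570N18Rik (standard error 0.221, adjusted p = 0.466) and -0.06 for A130010J15Rik (standard error 0.100, adjusted p = 0.658).

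**Figure D3:**
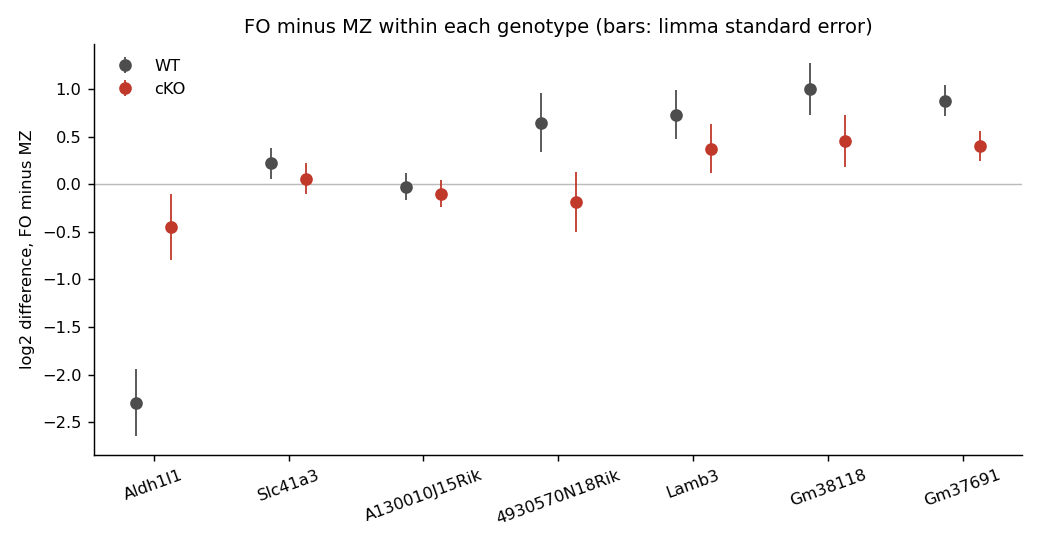
The log2 difference FO minus MZ of the 7 genes within WT (grey) and within cKO (red), with limma standard errors as bars. Aldh1l1 lies at -2.29 in WT and -0.45 in cKO, and Lamb3, Gm38118 and Gm37691 lie above 0 in both genotypes.

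Within each genotype, the plot of FO minus MZ shows values nearer to 0 in cKO than in WT for all members but A130010J15Rik. The difference of Aldh1l1 was -2.29 in WT and -0.45 in cKO (standard error 0.351 each). Lamb3 was at 0.73 and 0.37, Gm37691 at 0.87 and 0.40, and Gm38118 at 1.00 and 0.46. For 4930570N18Rik the values were 0.65 in WT and -0.19 in cKO. Since these differences between genotypes use the contrast on which the genes were chosen, they were not tested.

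The families of the 3 named genes were examined next. For Aldh1l1 the list held folate one-carbon enzymes and transporters (24 tested), for Slc41a3 magnesium transporters and channels (14 tested), and for Lamb3 laminin chains, their receptors and hemidesmosome and basement membrane genes (13 tested), in each case without the member itself. Between cKO and WT, 0 genes of each list were called with limma, DESeq2 or edgeR in FO, in MZ or over both subsets, and at an unadjusted p of 0.05 over both subsets there were 0 of 24, 3 of 14 and 2 of 13, beside 6.63% of all genes tested. The median log2 differences over both subsets were 0.02, -0.04 and -0.11, beside -0.01 for all genes tested. Since limma did not call Gtf2i itself in these contrasts, the counts of 0 do not show that the list genes were unchanged.

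**Figure D4:**
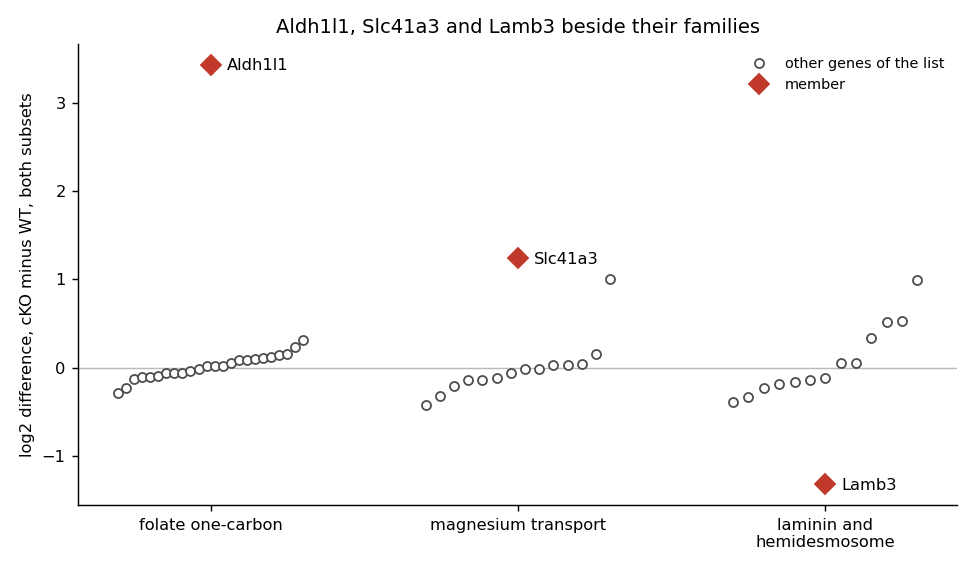
The log2 difference cKO minus WT over both subsets for the tested genes of the folate, magnesium and laminin lists (open circles, in order of value) and for the member that belongs to each (red diamond). Aldh1l1, Slc41a3 and Lamb3 lie at 3.43, 1.24 and -1.32, and were chosen on this contrast, so their distance from the other genes is a description.

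Aldh1l2, the mitochondrial counterpart of Aldh1l1, was at -0.24 (limma adjusted p = 0.907), and the abundant one-carbon genes Shmt2, Atic and Mtr, which encode serine hydroxymethyltransferase, a purine synthesis enzyme and methionine synthase, were at 0.09, 0.09 and -0.06. Of the paralogues of Slc41a3, Slc41a1 was at -0.21 (adjusted p = 0.667 in limma) and Slc41a2 at -0.32 (adjusted p = 0.646 in limma), both of the opposite sign. The magnesium channel kinase Trpm7 was at 0.03, and the transporters Nipal3 and Mrs2 were each at -0.02. Lama3, the alpha chain that pairs with Lamb3 in laminin-332, was near the detection limit, at a mean of 1.34 normalized counts over the 8 libraries, and was not tested. Lamc1, the gamma 1 chain, was at -0.18, the integrin chain Itgb1 at 0.06, and the cytolinker Plec at -0.33 (limma adjusted p = 0.747). Nipal4 and Nid2 had the highest values of the magnesium and laminin lists, 1.00 and 0.99, from mean normalized counts of 15.6 and 11.4 (adjusted p = 0.791 and 0.757 in limma). Nid2 was highest in cKO MZ replicate 2, at 28.9, the library with the collagen RNA. Both are named here only because of those values.

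Finally, the genes whose log2 levels followed the 3 named genes most closely over the 8 libraries were listed among all 14761 genes tested. For Aldh1l1 they were Rnf7, a ring-finger subunit of ubiquitin ligases (Pearson r = 0.987), Eif2s3y on the Y chromosome (0.971) and the RNA helicase gene Ddx54 (0.963). For Slc41a3 they were Gm29650 on the Y chromosome (0.982), AA465934 on chromosome 11 (0.971) and Uty on the Y chromosome (0.970). For Lamb3 they were its neighbours Gm37691 (0.987) and 4930570N18Rik (0.937), then Rbl2, a retinoblastoma-family gene on chromosome 8 (0.932).

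The sizes of the changes behind these correlations differ widely. Rnf7 ranged only from 403 to 494 normalized counts, while Eif2s3y was at 0 to 10.6 in WT and at 1545 to 4080 in cKO. AA465934 was at 48.5 to 60.7 in WT and at 163 to 203 in cKO. In cKO FO replicate 1, where Xist was present, Eif2s3y was at 1545 against 3840 in replicate 2, and Aldh1l1 was at 50.4 against 69.5, while Slc41a3 was at 249.7 against 254.7. Both Lamb3 and Gm37691 were lower in that library than in replicate 2. Whether the sex-linked difference has a part in the levels of the 7 genes was not tested, since it cannot be told apart from genotype here.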

How the data were processed

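RNA was extracted from sorted FO and MZ B cells, depleted of ribosomal RNA and sequenced as single-end reads. According to the submitters' processing notes and the methods, reads were aligned with HISAT2 to mm10, counted on genes with featureCounts and HTSeq, and normalized with DESeq2. The deposited signal is a normalized count for each gene and library, that is, reads divided by a size factor. Multiplying back gave whole reads, within 0.01, for 100% of the values. The 256343 blank lines of the table were left out, and 27872 of 27928 identifiers were found in GENCODE M21. Log2 values, with 1 added to the normalized count, were analysed in limma 3.58.1 (R 4.3.3, trend) for the 14761 genes with a mean of at least 10, the 8 libraries and 4 groups in a single fit. A gene was called at 1.5-fold or more with a two-sided p, adjusted by Benjamini and Hochberg, no higher than 0.05. Differences over both subsets or genotypes are means of the group contrasts.

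The members and gene lists were chosen with earlier results of these data known. Besides the members, Gtf2i, Xist and Ddx3y, the genes named are neighbours that were called, nearest, inside the span or largest in difference, list genes that were called or highest in level, close relatives, and the 3 most correlated genes. Alternatives were a pseudocount of 0.5, no filter, quantile normalization, a replicate block, only the 4 libraries of a subset, DESeq2 1.42.0 and edgeR 4.0.16 on recovered reads, windows of 0.5 and 2 Mb, and each library left out in turn. Replicate numbers were not treated as pairs, since nothing ties them to shared animals. The analysis was tested on simulated data. The 8 ATAC-seq samples were not analysed here, and results for some genes are left out.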

Additional observations from a re-analysis of the deposited data

How the results depend on the processing

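All 7 members kept cKO and WT libraries that did not overlap, in the same direction, under quantile normalization. The members were chosen on this contrast. Leaving out a library cannot make groups overlap that did not overlap before, so nothing is read from that setting here. With the replicate block, 9 genes were called in FO, 5 in MZ and 20 over both subsets between cKO and WT, beside 10, 5 and 16 without it. For each gene, replicate 2 minus replicate 1 was taken within each group on the log2 scale, and these differences were correlated between groups. Over the 14761 genes tested, the Pearson correlation was 0.29 for WT and cKO in FO and -0.30 for WT and cKO in MZ. It was 0.59 for FO and MZ of WT, but -0.00151 for FO and MZ of cKO. A replicate block with the cKO MZ numbers exchanged, chosen after seeing the data, called 12 genes in MZ and 37 over both subsets. DESeq2 called 24 genes in FO, 48 in MZ and 71 over both subsets, and a fit of only the 4 FO libraries called 4. Leaving out each library in turn gave 4 to 11 genes in FO, 4 to 7 in MZ and 8 to 17 over both subsets. The lowest of the last, 8, came without cKO MZ replicate 1, and in FO the count was 4 without WT FO replicate 1 or either cKO MZ library, 5 without cKO FO replicate 1 and 6 without WT FO replicate 2 or cKO FO replicate 2. Of the members, 1 to 3 were called between FO and MZ with each library left out, 1 of them without cKO FO replicate 2. Neighbours called between FO and MZ numbered 2 within 0.5 Mb and 13 within 2 Mb, beside 4 within 1 Mb. The numbers of genes tested within 0.5 and 2 Mb are not given here, so nothing is read from these counts. Values near 0 changed sign: A130010J15Rik between FO and MZ was 0.0649 under quantile normalization and -0.13 to 0.00333 with each library left out, Utp25 between cKO and WT was 0.00190 under quantile normalization and -0.0576 to 0.0323, and Hdac11 was -0.0935 to 0.11. The cause of these changes was not tested. Aldh1l1 in WT FO, G0s2 and Cfap100 rest on few reads, and each group has 2 libraries.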

Other observations

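The families of the 3 named genes were also compared between FO and MZ B cells. Of the 24 tested folate genes, 8 were called with limma, all lower in FO, where 18.4% of all genes were called in either direction. They included Tyms, the thymidylate synthase gene, at a log2 difference FO minus MZ of -1.63, the proton-coupled folate transporter Slc46a1 at -1.41, Aldh1l2 at -1.18 and the glycine cleavage gene Gcsh at -0.95. The median of the list was -0.40, beside 0.00452 for all genes tested. Aldh1l1 was also lower in FO, but its call rests largely on WT FO, with 2 reads in each library.

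Of the 14 magnesium genes, 2 were called, Slc41a2 at -0.75 and Nipal4 at -3.33, both lower in FO, and the median was -0.0645. For this list and the next, the share over all genes tested was again 18.4%, in either direction. Of the 13 laminin and hemidesmosome genes, 2 were called higher in FO and 4 lower. The integrin chain Itga6, a laminin receptor, was at 2.45 and Plec at 0.92, while the basement membrane genes Agrn and Hspg2 were at -2.29 and -0.69, Itgb1 at -0.92 and Dst, another cytolinker, at -0.84.

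Of the 19 tested neighbours, 4 were called between FO and MZ, a share near the 18.4% over all genes tested, so nothing is read from the count. Hsd11b1 was higher in FO at 0.82, the direction also seen in Gm37691 and Gm38118. Gm38118 lies inside Hsd11b1 on the same strand, and its reads cannot be told apart from unspliced Hsd11b1 RNA. Hhat, which encodes the acyltransferase of Hedgehog ligands, was lower in FO at -0.84, as were the histone deacetylase gene Hdac11 at -0.85 and 1810044D09Rik at -1.08.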
